A study of Mus musculus with 6 samples.

Results

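The enzymes that break down glucose and feed the mitochondria were followed at the RNA level in DN3 thymocytes of the mouse. The set held 41 genes of the 24015 gene symbols counted, picked by name from textbook pathways with earlier results of these data known. It comprised 15 genes of glycolysis, 7 of the pentose phosphate pathway, 4 of the pyruvate dehydrogenase complex and 15 of the TCA cycle. DN3 thymocytes are immature T cells without surface CD4 and CD8 that rearrange the T cell receptor beta locus, and they had been sorted as lineage-negative cells with low CD44 and high CD25. RNA was sequenced from 6 libraries in 3 groups of 2. Tcf1-deficient libraries came from Lck-cre+ Tcf1 fl/fl mice. In these a Cre driven by the T cell promoter Lck is designed to remove all forms of Tcf1. Tcf1 is an HMG-box protein, the product of Tcf7, and guides T cell development. p45-deficient libraries came from p45-/- mice, which lack the long Tcf1 isoforms and keep the short ones. Control libraries came from wild type mice. The labels give no age and no littermate or Cre control, and they are silent on whether the libraries of a group are separate animals or repeat preparations. The p-values rest on how far these libraries vary, and that spread may be technical.

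Glycolysis splits glucose into pyruvate in the cytosol, with control points at the hexokinases, which trap glucose in the cell, and at the phosphofructokinases, which commit it to breakdown. The pentose phosphate pathway branches off after the first step and yields NADPH and the ribose of nucleotides. Pyruvate dehydrogenase turns pyruvate into acetyl-CoA in the mitochondrion, and the TCA cycle oxidises it to feed the respiratory chain. Thymocytes that pass from DN3 to the next stage proliferate and use more glucose.

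Library totals ran from 19640524 to 28107031 counts, and 3 counts in a library corresponded to between 0.110 and 0.145 CPM, the unit in which counts are scaled to a common library size. Tcf7 served as a check of the labels and had 979 and 976 CPM in the Tcf1-deficient, 2339.6 and 2414 CPM in the p45-deficient and 2088 and 1810.1 CPM in the control libraries. Counts per gene do not separate the isoforms and may include exons outside the deleted part. How completely Tcf7 was deleted in the Tcf1-deficient libraries was not tested. The DN3 markers Il2ra, Notch1, Rag1 and Ptcra were all present, with at least 97.3 CPM in every library, and the 10 DN3 markers summed to between 7129 and 10583 CPM. Rag2, another of the 10, was lower, with 20.7 CPM in Tcf1-deficient replicate 1 and 59.0 CPM in Tcf1-deficient replicate 2. It had 154 and 130 CPM in p45-deficient and 78.3 and 61.6 CPM in control libraries. Replicates differed by more than counting noise in each group, most in Tcf1-deficient cells (chi-square per degree of freedom 77.1, against 10.1 in p45-deficient and 40.3 in control cells). Tcf1-deficient replicate 1 stood apart in the double-positive thymocyte markers, with a sum of 484 CPM, against 76.2 CPM in Tcf1-deficient replicate 2 and 154 to 285 CPM in the other groups. Immediate-early genes, which respond within minutes to stimulation or handling of cells, summed to 914 CPM in control replicate 1 and 3952 CPM in control replicate 2. In RNA from bulk cells, fewer cells of a type and less RNA per cell cannot be told apart.

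The 41 genes together took 0.690% to 0.789% of the counts of a library, and all 41 passed the filter on low counts. Per kilobase of exon, control cells held most Gapdh, the glyceraldehyde phosphate dehydrogenase of glycolysis, at 523 ± 17.7 CPM per kilobase (SD, n = 2). Ldha, which turns pyruvate into lactate, followed at 374 ± 7.81 CPM per kilobase, and the mitochondrial malate dehydrogenase gene Mdh2 at 218 ± 11.4 CPM per kilobase. Pgk1, Gpi1 and Tkt came next and lay close together, between 186 and 196 CPM per kilobase, within reach of the SD of Tkt (16.7). Aldoc, the brain-type aldolase, was lowest at 1.90 ± 0.296 CPM per kilobase, below Eno1 at 4.01 ± 0.270, the cytosolic isocitrate dehydrogenase gene Idh1 at 5.40 ± 0.0403 and Hk2 at 7.25 ± 1.21 CPM per kilobase. The level of Eno1, only 9.72 to 13.1 CPM per library for a step that every glycolytic cell needs, is uncertain: its copy Eno1b is listed separately, and how reads that match several copies were counted is not given in the sources used here. The same limit holds for Gapdh, Pgk1, Aldoa, Ldha and Pgam1, which have processed pseudogenes. The heat map of all 41 genes shows each library against the mean of control.

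**Figure D1:**
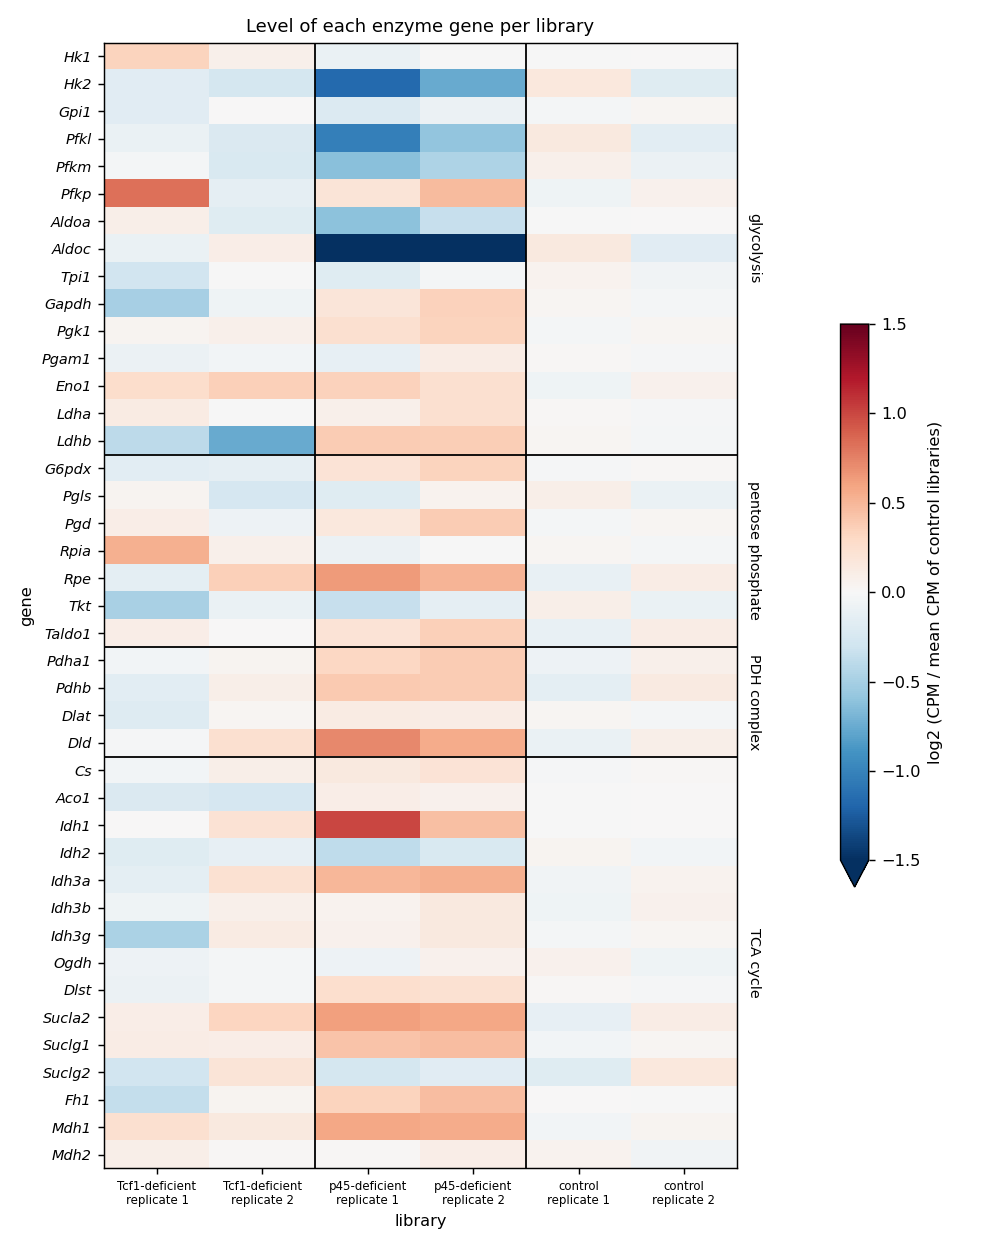
Level of each of the 41 enzyme genes in each library, as the log2 ratio of its CPM to the mean CPM of the 2 control libraries; rows are genes grouped by pathway, columns are libraries, and values beyond the ends of the colour scale take the end colour. In the p45-deficient columns Hk2, Pfkl, Pfkm, Aldoa and Aldoc are blue and Dld, Idh1, Idh3a, Sucla2, Suclg1 and Mdh1 are red; the 2 Tcf1-deficient columns differ from each other in Pfkp, Gapdh, Tkt and Idh3g.

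In p45-deficient DN3 cells, relative to control, 4 of the 15 glycolytic genes fell (Hk2, Pfkl, Pfkm and Aldoc), 1 of the 4 pyruvate dehydrogenase genes rose (Dld) and 3 of the 15 TCA cycle genes rose (Sucla2, Suclg1 and Mdh1). The other 33 of the 41 genes were not called at an adjusted p below 0.05 by edgeR's quasi-likelihood test. These 8 genes are 19.5% of the set. Over all 12939 genes tested, 16.0% were called in this comparison, 8.47% higher and 7.55% lower, so the share of called enzymes is near the background and is not in itself a result about these pathways. The difference in direction between pathways was not tested. Both p45-deficient libraries lay above both control libraries for 24 of the 41 genes (58.5%, beside 37.9% of all genes) and below for 9 (22.0%, beside 31.3%), which together is 33 genes where 69.3% of all genes did not overlap. The median log2 fold change was −0.05 over glycolysis, 0.27 over the pentose phosphate pathway, 0.37 over pyruvate dehydrogenase and 0.18 over the TCA cycle, beside 0.05 over all genes tested. With library totals as the only scaling these medians were −0.16 over glycolysis, 0.17 over the pentose phosphate pathway, 0.26 over pyruvate dehydrogenase and 0.070 over the TCA cycle, beside −0.06 over all genes.

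Hk2 encodes the inducible hexokinase that performs the first step of glycolysis. It had 36.2 and 33.8 CPM in the Tcf1-deficient libraries, 18.1 and 24.1 CPM in p45-deficient libraries and 45.5 and 35.9 CPM in control libraries. Both p45-deficient libraries lay below all 4 others, and Hk2 fell 1.93-fold relative to control (log2 fold change −0.95 ± 0.19 SE, edgeR adjusted p = 0.0200). Hk1, the constitutive hexokinase and the more abundant of the pair, had 188 and 158 CPM in Tcf1-deficient, 139.8 and 149 CPM in p45-deficient and 149 and 150.1 CPM in control cells, and its p45-deficient level was not called (log2 fold change −0.05 ± 0.13 SE, edgeR adjusted p = 0.808). For Hk1 p45-deficient replicate 2 was level with control.

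Phosphofructokinase is built from liver, muscle and platelet subunits, encoded by Pfkl, Pfkm and Pfkp. Pfkl, the most abundant, had 155 and 144 CPM in Tcf1-deficient, 82.0 and 111 CPM in p45-deficient and 184 and 149 CPM in control libraries, and it fell 1.73-fold in p45-deficient cells (log2 fold change −0.79 ± 0.18 SE, edgeR adjusted p = 0.0272). Pfkm had 48.7 and 42.3 CPM in Tcf1-deficient, 32.1 and 36.0 CPM in p45-deficient and 52.6 and 46.8 CPM in control libraries, and fell 1.46-fold (log2 fold change −0.55 ± 0.14 SE, edgeR adjusted p = 0.0422). For both subunits the p45-deficient libraries were the lowest pair of the 6. Pfkp had 98.7 and 50.5 CPM in Tcf1-deficient, 63.3 and 77.3 CPM in p45-deficient and 53.1 and 58.1 CPM in control libraries and was not called (log2 fold change 0.34 ± 0.30 SE, edgeR adjusted p = 0.470). Its p45-deficient libraries lay above control, so the direction differed from that of Pfkl and Pfkm, and Tcf1-deficient replicate 1 was the highest of all.

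Aldolase splits the sugar phosphate that phosphofructokinase makes. Aldoc, the rarest gene of the set, had 5.28 and 6.08 CPM in Tcf1-deficient, 1.18 and 2.01 CPM in p45-deficient and 6.28 and 5.04 CPM in control libraries. It fell 3.57-fold in p45-deficient cells (log2 fold change −1.83 ± 0.38 SE, edgeR adjusted p = 0.0219), the largest change of the set in this comparison. The lowest library held 32 counts of Aldoc, above the floor of 3. Aldoa, the main aldolase, had 229 and 190.3 CPM in Tcf1-deficient, 141 and 170.1 CPM in p45-deficient and 215 and 217 CPM in control libraries, with a difference that missed the threshold (log2 fold change −0.47 ± 0.14 SE, edgeR adjusted p = 0.0649). The other glycolytic genes that were not called had log2 fold changes between −0.15 (Gpi1) and 0.37 (Ldhb). Among them Gapdh and Pgk1, which act below aldolase, lay above control in both p45-deficient libraries, at 889.8 and 996 CPM of Gapdh, against 800.3 and 763 CPM in control.

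**Figure D2:**
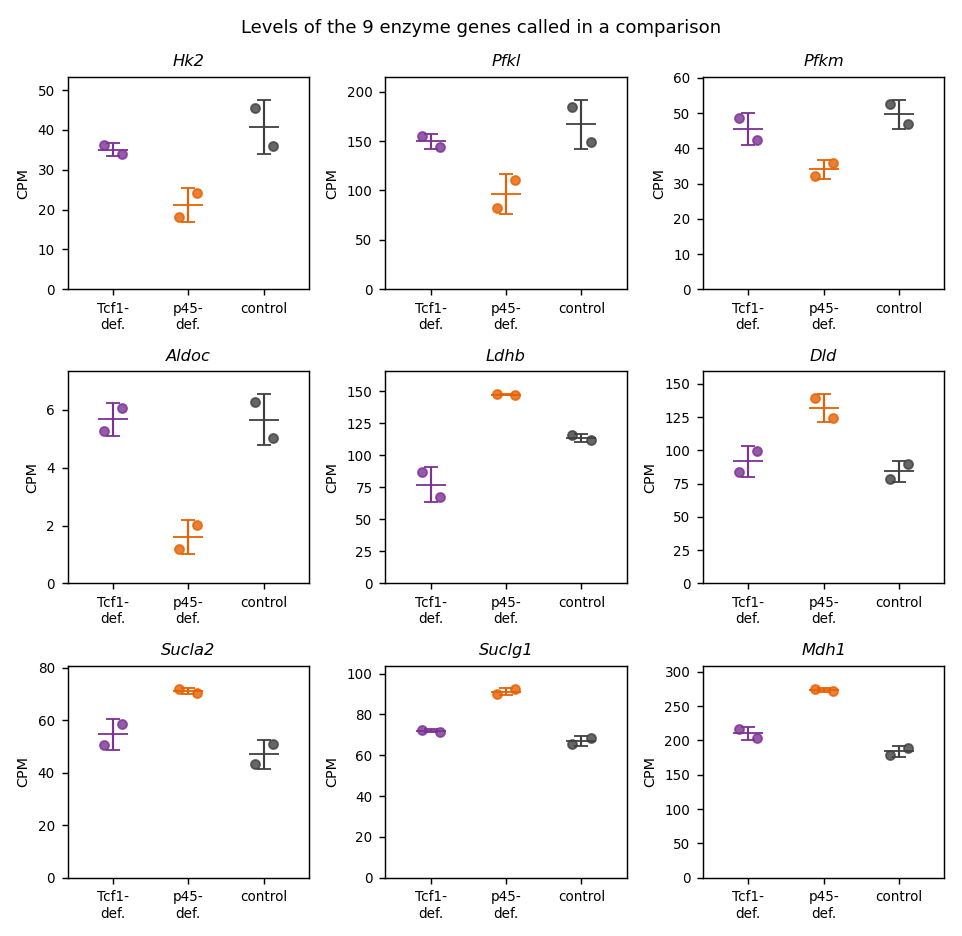
CPM of the 9 enzyme genes called in at least 1 comparison, by group; points are libraries, the long bar is the mean and the whiskers are the SD over 2 libraries, and each vertical axis starts at 0. The p45-deficient points lie below the other groups for Hk2, Pfkl, Pfkm and Aldoc and above them for Ldhb, Dld, Sucla2, Suclg1 and Mdh1.

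No gene of the pentose phosphate pathway was called in p45-deficient cells (0 of 7 by edgeR, with 1, Rpe, at an unadjusted p below 0.05, where 33.8% of all genes lay, and 0 called by DESeq2). G6pdx, the enzyme that commits glucose to the pathway and yields NADPH, had 48.7 and 49.6 CPM in Tcf1-deficient, 62.7 and 68.8 CPM in p45-deficient and 53.9 and 55.0 CPM in control libraries (log2 fold change 0.27 ± 0.12 SE, edgeR adjusted p = 0.153). Its p45-deficient libraries lay above the others without passing the test. Log2 fold changes over the pathway ran from −0.23 for Tkt, the transketolase, to 0.58 for Rpe, which interconverts pentose phosphates. The summed level of the 7 genes was 1086 ± 54.4 CPM in Tcf1-deficient, 1173 ± 97.5 CPM in p45-deficient and 1175 ± 38.9 CPM in control cells (SD, n = 2 each).

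The pyruvate dehydrogenase complex was the pathway whose 4 genes all lay above control in both p45-deficient libraries, where 37.9% of all genes did so. Their summed level was 452 ± 39.2 CPM in Tcf1-deficient, 588 ± 2.28 CPM in p45-deficient and 451 ± 34.1 CPM in control cells (SD, n = 2 each). Dld encodes the dihydrolipoamide dehydrogenase, a subunit that this complex shares with the alpha-ketoglutarate and branched-chain ketoacid dehydrogenases. It had 83.4 and 99.9 CPM in Tcf1-deficient, 139 and 125 CPM in p45-deficient and 78.8 and 90.0 CPM in control libraries and rose 1.56-fold in p45-deficient cells (log2 fold change 0.64 ± 0.14 SE, edgeR adjusted p = 0.0260). Pdha1, the catalytic alpha subunit and the site of inhibition by the pyruvate dehydrogenase kinases, had 179.8 and 190.0 CPM in Tcf1-deficient, 229 and 242 CPM in p45-deficient and 176 and 195 CPM in control libraries and was not called (log2 fold change 0.35 ± 0.12 SE, edgeR adjusted p = 0.0793). Pdhb and Dlat, with log2 fold changes of 0.39 and 0.12, were not called either.

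In the TCA cycle 3 of 15 genes rose in p45-deficient cells, 0 fell and 12 were not called. Of these 3, Sucla2 and Suclg1 encode the ATP-forming beta subunit and the shared alpha subunit of succinyl-CoA ligase. Sucla2 had 50.5 and 58.7 CPM in Tcf1-deficient, 71.8 and 70.4 CPM in p45-deficient and 43.1 and 50.9 CPM in control libraries and rose 1.51-fold (log2 fold change 0.60 ± 0.14 SE, edgeR adjusted p = 0.0315). Suclg1 had 72.6 and 71.6 CPM in Tcf1-deficient, 89.8 and 92.3 CPM in p45-deficient and 65.4 and 68.6 CPM in control libraries and rose 1.36-fold (log2 fold change 0.44 ± 0.11 SE, edgeR adjusted p = 0.0364). The partner for the GTP-forming enzyme, Suclg2, went without a call at 64.6 and 68.7 CPM in p45-deficient and 68.3 and 86.7 CPM in control cells (log2 fold change −0.22 ± 0.19 SE). Mdh1, the cytosolic malate dehydrogenase that works in the malate-aspartate shuttle rather than in the cycle itself, had 217 and 204 CPM in Tcf1-deficient, 275 and 272 CPM in p45-deficient and 179 and 189.6 CPM in control libraries. It rose 1.48-fold in p45-deficient cells (log2 fold change 0.57 ± 0.11 SE, edgeR adjusted p = 0.0170). Its mitochondrial counterpart Mdh2 stood at 321 and 338 CPM in p45-deficient and 329 and 305 CPM in control libraries, and these overlapped.

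The entry and rate-limiting steps of the cycle were not called in p45-deficient cells. Cs, the citrate synthase, had 236 and 257 CPM in Tcf1-deficient, 269 and 279 CPM in p45-deficient and 239 and 246 CPM in control libraries (log2 fold change 0.18 ± 0.11 SE, edgeR adjusted p = 0.303). Idh3a, the catalytic subunit of the NAD-dependent isocitrate dehydrogenase, had 83.3 and 108 CPM in Tcf1-deficient, 130.2 and 133 CPM in p45-deficient and 89.2 and 95.7 CPM in control libraries and lay just outside the threshold (log2 fold change 0.51 ± 0.15 SE, edgeR adjusted p = 0.0555). Ogdh, the alpha-ketoglutarate dehydrogenase, had 270.3 and 279.6 CPM in Tcf1-deficient, 269.8 and 299 CPM in p45-deficient and 298 and 273 CPM in control libraries, with groups that overlapped (log2 fold change −0.01 ± 0.12 SE, edgeR adjusted p = 0.981). The NADP-dependent pair showed opposite signs without a call: cytosolic Idh1 had the largest positive log2 fold change of the set, 0.75 ± 0.23 SE (edgeR adjusted p = 0.0622), and mitochondrial Idh2 one of −0.30 ± 0.11 SE (edgeR adjusted p = 0.110). Idh1 was a low gene, with 26.8 and 18.2 CPM in p45-deficient and 13.3 and 13.4 CPM in control libraries. Over pyruvate dehydrogenase and the TCA cycle together, 14 of 19 genes lay above control in both p45-deficient libraries (73.7%, beside 37.9% of all genes) and 1 lay below (5.26%, beside 31.3%).

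The promoters of 4 genes called in p45-deficient cells, a pair that fell and a pair that rose, are printed to show which binding motifs surround their starts. They come from RefSeq on build GRCm38.p6, while the build named for the counts is mm9. Each is a window of 300 bases on the strand of the gene, 5′ to 3′, mostly upstream of the annotated start: chr6:82774405-82774704 on the minus strand for Hk2, chr10:78009758-78010057 on the minus strand for Pfkl, chr11:21571885-21572184 on the minus strand for Mdh1 and chr14:73552536-73552835 on the plus strand for Sucla2. Capitals mark matches on either strand to CTTTGA, the core of the site that TCF and LEF proteins bind, or to ACGTG, the core of hypoxia response elements, which is also contained in the E-box CACGTG.
Hk2: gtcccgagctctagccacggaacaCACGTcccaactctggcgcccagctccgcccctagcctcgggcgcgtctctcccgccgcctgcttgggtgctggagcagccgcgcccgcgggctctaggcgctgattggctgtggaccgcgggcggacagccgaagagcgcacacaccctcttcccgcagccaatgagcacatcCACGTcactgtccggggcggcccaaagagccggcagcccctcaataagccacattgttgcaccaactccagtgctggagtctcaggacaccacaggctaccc
Pfkl: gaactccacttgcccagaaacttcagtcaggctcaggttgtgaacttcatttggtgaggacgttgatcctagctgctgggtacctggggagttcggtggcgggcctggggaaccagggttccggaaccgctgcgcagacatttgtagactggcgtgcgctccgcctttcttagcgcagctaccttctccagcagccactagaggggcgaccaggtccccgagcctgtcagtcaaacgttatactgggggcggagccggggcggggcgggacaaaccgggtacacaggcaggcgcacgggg
Mdh1: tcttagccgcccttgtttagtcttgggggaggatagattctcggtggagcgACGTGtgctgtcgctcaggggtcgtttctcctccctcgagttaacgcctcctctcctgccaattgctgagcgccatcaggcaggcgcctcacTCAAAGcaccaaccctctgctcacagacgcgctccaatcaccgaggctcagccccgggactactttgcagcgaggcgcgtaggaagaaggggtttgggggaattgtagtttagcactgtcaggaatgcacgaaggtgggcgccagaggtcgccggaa
Sucla2: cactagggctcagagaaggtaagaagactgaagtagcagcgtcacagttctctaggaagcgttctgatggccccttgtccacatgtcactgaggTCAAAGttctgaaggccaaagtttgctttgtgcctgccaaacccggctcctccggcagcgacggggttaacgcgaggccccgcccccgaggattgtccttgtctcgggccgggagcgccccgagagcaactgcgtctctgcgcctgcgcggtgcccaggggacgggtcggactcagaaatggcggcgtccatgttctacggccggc

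Of the 41 genes, 40 were matched to RefSeq promoters by symbol (not Idh3a). CTTTGA or its reverse complement was found in 17.5% of the 57 windows of these genes and in 16.0% of all 32851 windows, for 10 genes that include the called genes Aldoc, Sucla2 and Mdh1. ACGTG was found in 36.8% of the windows of the set and in 19.6% of all windows, for 14 genes: Hk1, Hk2, Pfkm, Aldoa, Aldoc, Gapdh, Pgk1, Pgam1, Ldha, G6pdx, Pdhb, Idh3g, Ogdh and Mdh1. CACGTG was found in 8.77% of the windows of the set and in 7.15% of all windows, in Pfkm, Ldha and Ogdh. The Hk2 window holds ACGTG at 2 places, both on the opposite strand, and the Pfkl window holds none of these letters. A match describes the sequence and does not show that a factor binds there.

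Other gene groups moved along with the p45-deficient libraries. Of 28 cell-cycle genes, 19 were higher and 0 lower in p45-deficient than in control cells by edgeR, and their summed level was 10617 to 11261 CPM in p45-deficient and 6440 to 7072 CPM in control libraries. Without 1 of the p45-deficient or control libraries 3 to 6 of them were called, and without 1 of the Tcf1-deficient libraries 24 to 26 were, each time higher. Of 18 immediate-early genes tested, 2 were lower (Jun and Jund), with sums of 625 to 659 CPM in p45-deficient and 914 to 3952 CPM in control libraries. This count of lower genes depended on the fit, with 13 without control replicate 1, 6 without control replicate 2, 0 without either p45-deficient library, 1 without either Tcf1-deficient library, 11 by DESeq2 and 0 with the replicate block. Of 10 DN3 markers 1 was higher (Dtx1). Of 8 early progenitor genes, 4 were lower (Kit, Bcl11a, Mef2c and Hhex) and 1 higher (Lyl1), with sums of 14.0 to 16.4 CPM in p45-deficient and 81.1 to 86.2 CPM in control libraries. Without 1 of the p45-deficient or control libraries 1 to 3 of them were lower and 0 higher. Myeloid and dendritic cell markers, with 0 of 10 tested called, summed to 32.6 to 35.4 CPM in p45-deficient and 56.6 to 118 CPM in control libraries. B cell markers summed to 13.9 to 16.3 CPM in p45-deficient and 28.7 to 36.3 CPM in control libraries, with 1 of 4 tested lower (Cd79a). Innate lymphoid markers summed to 172 to 173 CPM in p45-deficient and 179 to 188 CPM in control libraries, with 0 called. Most of this sum was Gata3, with 145 and 148 CPM in p45-deficient and 152 and 147 CPM in control libraries. Thymic stroma markers summed to 166 to 181 CPM in p45-deficient and 159.9 to 165 CPM in control libraries, also with 0 called. The globin genes Hba-a1, Hba-a2, Hbb-b1 and Hbb-b2 were at 0 counts in every library. The part of these groups in the enzyme changes was not tested.

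**Figure D3:**
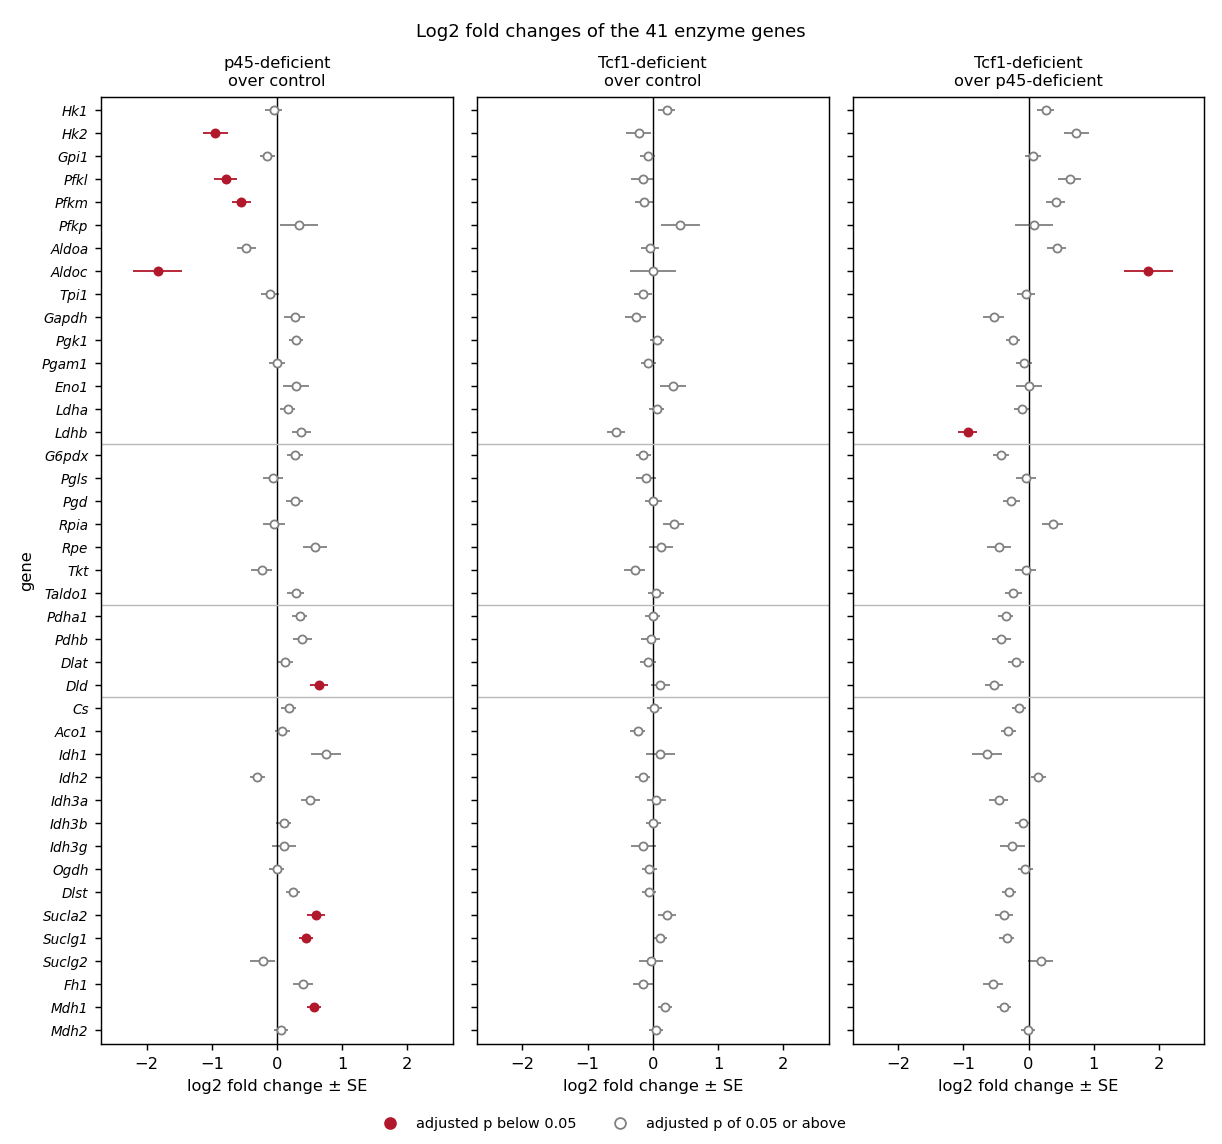
Log2 fold change of each of the 41 enzyme genes in the 3 comparisons, as points with the SE from edgeR's quasi-likelihood test; filled red points have an adjusted p below 0.05, open points do not, and grey lines part the pathways. In p45-deficient over control 8 points are filled, in Tcf1-deficient over control none is, and in Tcf1-deficient over p45-deficient Aldoc (1.84) and Ldhb (−0.94) are.

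The calls in p45-deficient cells depended on having both p45-deficient and both control libraries. Without control replicate 2, the control library with the high immediate-early sum, 1 of the 41 genes was called (Hk2, 2.44%, beside 3.94% of all genes). Without control replicate 1 none of the 41 was called, beside 3.31% of all genes, and likewise without p45-deficient replicate 1 (1.90%) or p45-deficient replicate 2 (2.84%), so calls were lost over all genes and not in this set alone. Without Tcf1-deficient replicate 1 or 2 the same 8 genes were called with others, 15 (36.6%, beside 28.8% of all genes) and 16 in all (39.0%, beside 28.9%). The signs of the 8 called genes did not change: over these and the other alternatives the log2 fold change of Hk2 lay between −1.17 and −0.75, that of Pfkl between −1.02 and −0.58 and that of Mdh1 between 0.46 and 0.58. Suclg1 was the least stable, called under 4 of 13 alternatives. With library totals as the only scaling the median over all genes was −0.06, against 0.05 with TMM scaling (log2 fold changes), a shift of −0.11, and small changes of single genes are to be read against that.

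In Tcf1-deficient DN3 cells 0 of the 41 enzyme genes were called against control by edgeR, where 0 of 12939 genes in all (0%) were called. Tcf7 itself was among the genes not called, at 979 and 976 CPM in Tcf1-deficient and 2088 and 1810 CPM in control libraries. The absence of calls therefore does not show that levels were unchanged. At an unadjusted p below 0.05 there was 1 enzyme gene, Ldhb, beside 7.91% of all genes, and DESeq2 called 1 enzyme gene, again Ldhb, and 145 genes in all. Ldhb, the lactate dehydrogenase subunit that favours lactate use, had 86.8 and 67.3 CPM in the Tcf1-deficient libraries, 148 and 147 CPM in p45-deficient libraries and 116 and 112 CPM in control libraries. Both Tcf1-deficient libraries lay below both control libraries (log2 fold change −0.56 ± 0.14 SE, edgeR adjusted p = 0.480). The other log2 fold changes ran from −0.28 for Tkt to 0.42 for Pfkp, and the medians were −0.07 over glycolysis, 0.01 over the pentose phosphate pathway, −0.02 over pyruvate dehydrogenase and 0.01 over the TCA cycle, beside 0.01 over all genes. With library totals the pentose phosphate and TCA cycle medians had the other sign, both −0.04, as did that of all genes. Both Tcf1-deficient libraries lay above control for 6 of 41 genes (14.6%, beside 16.4% of all genes) and below for 8 (19.5%, beside 18.0%), and 34.4% of all genes did not overlap either way. Innate lymphoid markers stood higher in both Tcf1-deficient libraries, with a sum of 239 to 259 CPM in Tcf1-deficient, 172 to 173 CPM in p45-deficient and 179 to 188 CPM in control libraries. Of their 6 tested genes 0 were called against control by edgeR and 1 by DESeq2, while 5 had an unadjusted p below 0.05 and lay above control in both libraries. Gata3 made up most of the innate lymphoid sum, with 179 and 181 CPM in Tcf1-deficient and 152 and 147 CPM in control libraries. It also had 145 and 148 CPM in p45-deficient libraries. Every library of these sorted DN3 cells thus held Gata3, and the sum does not measure innate lymphoid cells alone. Nkg7 had 65.3 and 54.8 CPM in Tcf1-deficient and 24.0 and 38.5 CPM in control libraries. Eomes and Prf1 had 4.57 and 5.93 CPM in Tcf1-deficient replicate 1 but 0.583 and 1.37 CPM in replicate 2. Thymic stroma markers summed to 196 to 214 CPM in Tcf1-deficient libraries, also with 0 called. Epcam and Pecam1 held most of the stroma sum. Epcam had 62.7 and 112 CPM in Tcf1-deficient and 65.8 and 71.4 CPM in control libraries. Pecam1 had 130 and 101 CPM in Tcf1-deficient and 92.0 and 91.8 CPM in control libraries. The part of these markers in the enzyme values was not tested.

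The Tcf1-deficient replicates disagreed for several of these genes. In replicates 1 and 2, Pfkp had 98.7 and 50.5 CPM, Gapdh 552 and 749 CPM, Tkt 427 and 560.3 CPM and Idh3g 98.4 and 149 CPM. Replicate 1 is the library with the high sum of double-positive markers, which include Cd4 at 372 CPM in that library and 46.1 CPM in replicate 2. Without replicate 1, 0 enzyme genes were called against control. Without replicate 2, which leaves replicate 1 alone and assumes that it varies like the other groups, 3 were called, with Pfkp and Rpia higher and Gapdh lower. These are 7.32% of the set, beside 6.59% of all genes in the same fit, a share near the background.

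Set directly against p45-deficient cells, Tcf1-deficient cells held more Aldoc and less Ldhb, and the other 39 enzyme genes were not called. These 2 genes are 4.88% of the set, beside 10.4% of all genes called in this comparison, 5.05% higher and 5.36% lower. At an unadjusted p below 0.05 there were 20 of the 41, beside 31.1% of all genes. Aldoc was 3.58-fold higher in Tcf1-deficient cells (log2 fold change 1.84 ± 0.38 SE, edgeR adjusted p = 0.0292), and Ldhb was 1.91-fold lower (log2 fold change −0.94 ± 0.14 SE, edgeR adjusted p = 0.0136). Hk2, at a log2 fold change of 0.73 ± 0.19 SE (edgeR adjusted p = 0.0529), and Pfkl, at 0.63 ± 0.18 SE (edgeR adjusted p = 0.0618), lay just outside the threshold. The p45-deficient libraries are shared between this comparison and that of p45-deficient with control cells, so the values of the 2 comparisons are not independent. Both Tcf1-deficient libraries lay below both p45-deficient libraries for 20 of 41 genes (48.8%, beside 33.3% of all genes) and above for 8 (19.5%, beside 27.7%), and 61.0% of all genes did not overlap either way. For pyruvate dehydrogenase and the TCA cycle this was 13 of 19 below and 1 above, with none called. The summed level of the 15 TCA cycle genes was 2098 ± 112 CPM in Tcf1-deficient, 2358 ± 68.9 CPM in p45-deficient and 2110 ± 2.95 CPM in control cells, and that of the 15 glycolytic genes was 3501 ± 70.1 CPM in Tcf1-deficient, 3805 ± 296 CPM in p45-deficient and 3676 ± 65.7 CPM in control cells (SD, n = 2 each).

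Beside these enzyme genes, 19 of the 28 cell-cycle genes were lower in Tcf1-deficient than in p45-deficient cells, with sums of 6029 to 7845 CPM in Tcf1-deficient and 10617 to 11261 CPM in p45-deficient libraries. Of the 18 immediate-early genes, 4 were higher (Jun, Jund, Ier2 and Ier3), with sums of 3367 to 4034 CPM in Tcf1-deficient and 625 to 659 CPM in p45-deficient libraries. Both counts were 0 without either p45-deficient library, and over the other alternatives 4 to 26 cell-cycle genes were lower and 1 to 14 immediate-early genes were higher. Of 10 DN3 markers, 4 were lower (Ptcra, Rag1, Dtx1 and Thy1), with sums of 7129 to 9909 CPM in Tcf1-deficient and 9958 to 10583 CPM in p45-deficient libraries, a count that was 0 without any 1 of the p45-deficient or control libraries. Of 8 early progenitor genes, 3 were higher (Kit, Bcl11a and Hhex) and 1 lower (Gfi1b), with sums of 49.6 to 70.5 CPM in Tcf1-deficient and 14.0 to 16.4 CPM in p45-deficient libraries. Of 6 innate lymphoid markers tested 1 was higher (Nkg7). The part of these groups in the result was not tested. Without Tcf1-deficient replicate 1 the same 2 enzyme genes were called, beside 10.2% of all genes, and without Tcf1-deficient replicate 2 there were 16 (39.0%, beside 25.3%). Without control replicate 1 or 2 there was 1, Ldhb (2.44%, beside 4.88% and 4.79%), and without p45-deficient replicate 1 or 2 there were 0 (beside 0.775% and 1.35%).

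Several steps are served by paired genes, and the ratio of the partners within a library does not depend on how libraries are scaled. The log2 ratio of Hk2 to Hk1 counts was −2.38 and −2.22 in Tcf1-deficient, −2.95 and −2.63 in p45-deficient and −1.71 and −2.06 in control libraries. The log2 ratio of Pfkp to Pfkl was −0.65 and −1.51 in Tcf1-deficient, −0.37 and −0.52 in p45-deficient and −1.80 and −1.36 in control libraries. In both cases the p45-deficient libraries lay outside the range of the other 4, with less Hk2 per Hk1 and more Pfkp per Pfkl. The log2 ratio of Aldoc to Aldoa was −5.44 and −4.97 in Tcf1-deficient, −6.90 and −6.40 in p45-deficient and −5.10 and −5.43 in control libraries, so Aldoc was low in p45-deficient cells also relative to Aldoa. Ldha to Ldhb gave 3.15 and 3.39 in Tcf1-deficient, 2.34 and 2.51 in p45-deficient and 2.63 and 2.65 in control libraries, highest in Tcf1-deficient and lowest in p45-deficient cells, with no overlap between any pair of groups. For succinyl-CoA ligase the log2 ratio of Sucla2 to Suclg2 was −0.33 and −0.60 in Tcf1-deficient, 0.15 and 0.03 in p45-deficient and −0.66 and −0.77 in control libraries, again with no overlap. The ratios are given as values only, since the exact permutation test chosen for them cannot go below p = 0.33 with 2 against 2 libraries, and no model was fitted to them.

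**Figure D4:**
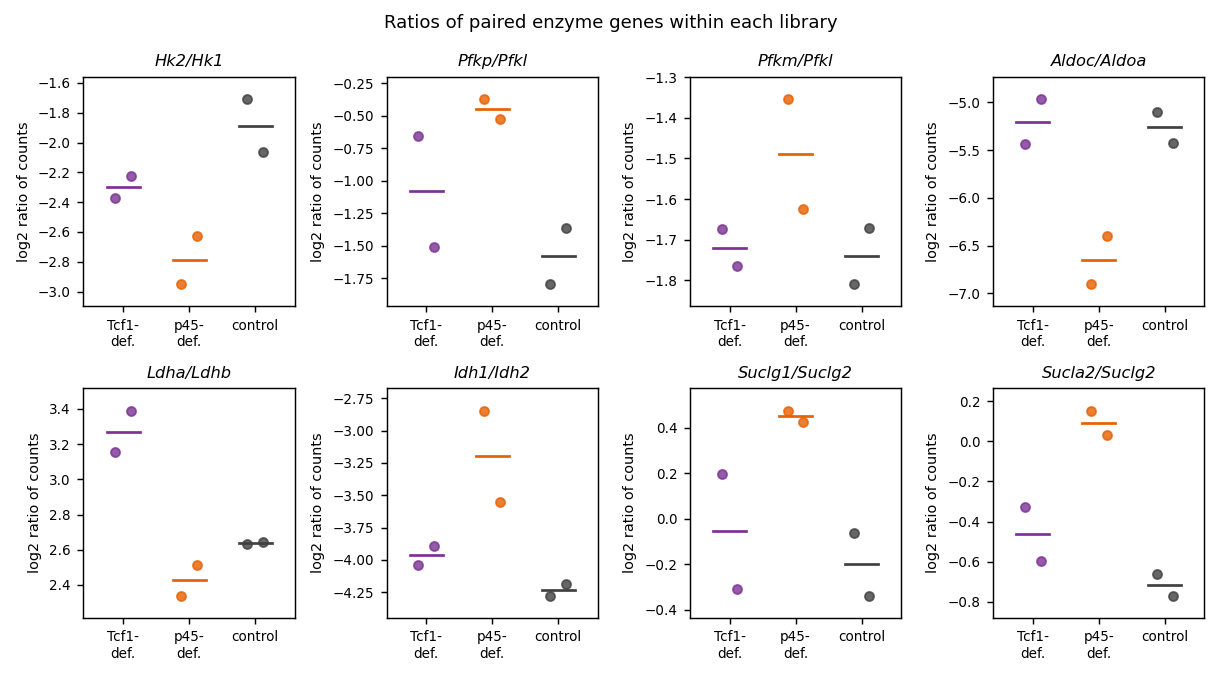
Log2 ratio of the counts of 8 pairs of enzyme genes within each library, by group; points are libraries and bars are group means, and the vertical axes differ between panels and do not start at 0. The p45-deficient points lie apart from the control points in all 8 panels, and the Tcf1-deficient points lie apart from control for Hk2/Hk1, Ldha/Ldhb, Idh1/Idh2 and Sucla2/Suclg2. Of single genes, 69.3% did not overlap in p45-deficient against control and 34.4% in Tcf1-deficient against control. No such share was computed for ratios, and several pairs hold genes already called in p45-deficient cells.

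Further genes act around these pathways. Of 22 tested regulators, 6 fell and 3 rose in p45-deficient cells relative to control, which is 40.9% of the list, beside 16.0% of all genes. The lists of further genes were chosen with earlier results of these data known, so such shares do not test them against the background. Fbp1, the fructose bisphosphatase that runs against phosphofructokinase in gluconeogenesis, had 3.60 and 5.04 CPM in Tcf1-deficient, 37.2 and 28.9 CPM in p45-deficient and 2.66 and 3.82 CPM in control libraries and rose 10.1-fold in p45-deficient cells (log2 fold change 3.34 ± 0.30 SE, edgeR adjusted p = 0.00192). Pck2, the mitochondrial phosphoenolpyruvate carboxykinase, had 33.8 and 43.3 CPM in Tcf1-deficient, 8.86 and 6.75 CPM in p45-deficient and 37.2 and 36.6 CPM in control libraries and fell 4.71-fold (log2 fold change −2.24 ± 0.20 SE, edgeR adjusted p = 0.00193). Both kept their call in p45-deficient cells under all 13 alternatives, as did Pdk2.

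The kinases and phosphatases that set the activity of pyruvate dehydrogenase were divided. Pdk2, a kinase that switches the complex off, had 16.5 and 19.9 CPM in Tcf1-deficient, 7.90 and 6.61 CPM in p45-deficient and 24.8 and 22.6 CPM in control libraries and fell 3.26-fold in p45-deficient cells (log2 fold change −1.70 ± 0.20 SE, edgeR adjusted p = 0.00424). Pdk1, another such kinase, fell 1.39-fold, with 107 ± 2.00 CPM in p45-deficient and 148 ± 4.79 CPM in control cells (SD, n = 2 each; log2 fold change −0.47 ± 0.11 SE, edgeR adjusted p = 0.0282). Pdk3, a further kinase, had 46.6 ± 2.12 CPM in p45-deficient and 32.0 ± 0.189 CPM in control cells and was not called (log2 fold change 0.54, edgeR adjusted p = 0.0579). Pdp1, a phosphatase that switches the complex on, rose 1.75-fold, with 20.0 ± 1.73 CPM in p45-deficient and 11.4 ± 0.908 CPM in control cells (log2 fold change 0.81 ± 0.20 SE, edgeR adjusted p = 0.0344). The Pdp1 call held in 7 of 13 alternatives and was lost with library totals and with upper-quartile scaling. Pdp2, another such phosphatase, had 33.5 and 27.2 CPM in p45-deficient and 31.3 and 27.9 CPM in control libraries. These overlapped, and Pdp2 was not called.

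Among the remaining regulators called in p45-deficient cells, Pfkfb3 and Pfkfb4 make the sugar bisphosphate that activates phosphofructokinase. Pfkfb3 fell 1.67-fold, with 46.8 ± 5.42 CPM in p45-deficient and 78.1 ± 9.13 CPM in control cells (log2 fold change −0.74 ± 0.16 SE, edgeR adjusted p = 0.0240), and Pfkfb4 fell 1.86-fold, with 6.76 and 6.46 CPM in p45-deficient and 13.3 and 11.2 CPM in control libraries. Mlxip, a glucose-responsive transcription factor, fell 1.85-fold, with 87.9 ± 2.04 CPM in p45-deficient and 163 ± 12.8 CPM in control cells (log2 fold change −0.89 ± 0.12 SE, edgeR adjusted p = 0.00573). Hif1a, the hypoxia-inducible factor that activates many glycolytic genes, rose 1.46-fold (log2 fold change 0.54 ± 0.15 SE, edgeR adjusted p = 0.0472), but this call held in 5 of 13 alternatives. Myc, another activator of glycolytic genes, had 231 and 278 CPM in Tcf1-deficient, 271 and 311 CPM in p45-deficient and 401 and 290.2 CPM in control libraries and was not called in any comparison. Apart from Fbp1, Pck2 and Pdk2, none of the calls among these regulators in p45-deficient cells held without p45-deficient replicate 1 or without p45-deficient replicate 2.

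**Figure D5:**
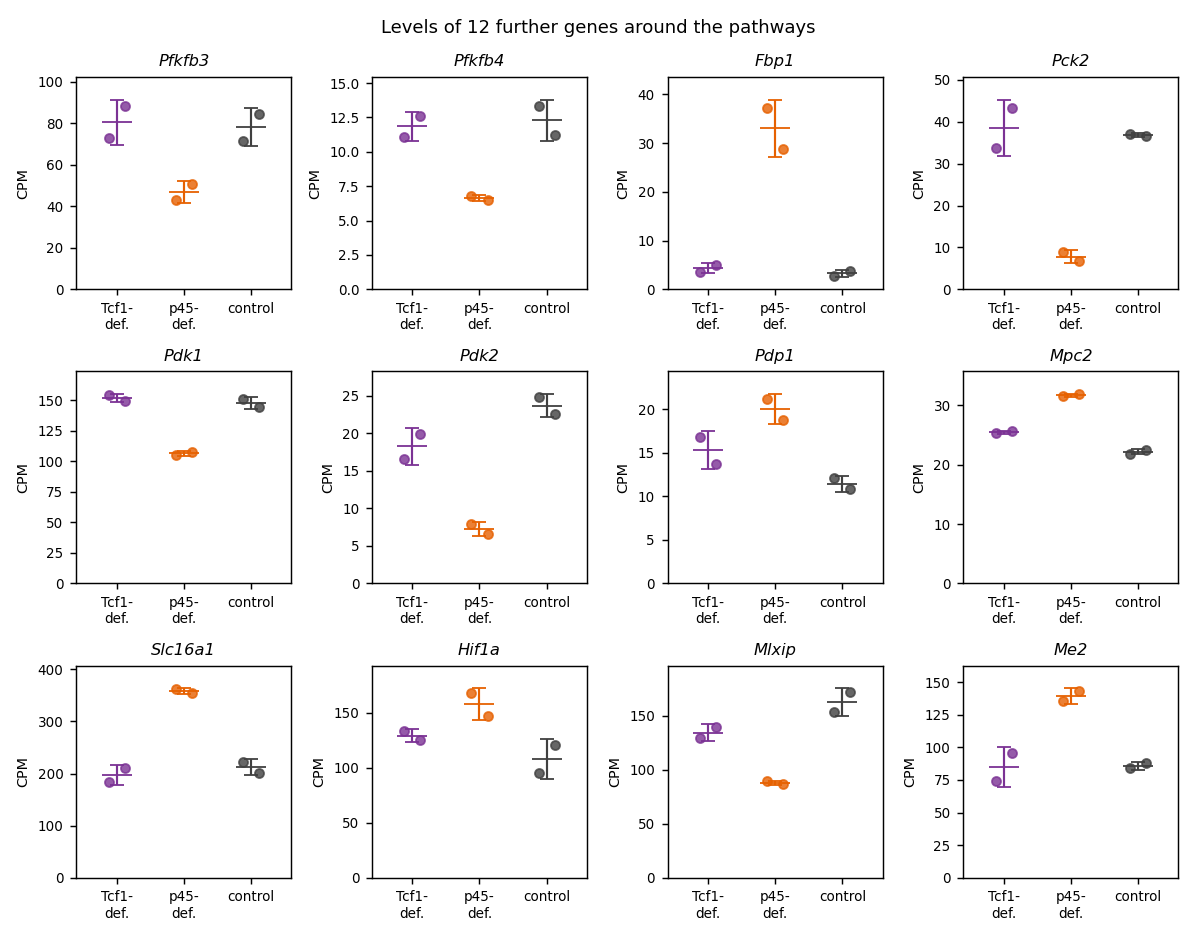
CPM of 12 further genes around the pathways, by group; points are libraries, the long bar is the mean and the whiskers are the SD over 2 libraries, and each vertical axis starts at 0. Fbp1 reaches 28.9 and 37.2 CPM in p45-deficient libraries and stays at or below 5.04 CPM elsewhere, while Pck2 and Pdk2 lie lower in p45-deficient than in all other libraries.

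Of 14 tested transporters 2 rose and 0 fell in p45-deficient cells (14.3%, beside 16.0% of all genes). Slc16a1, which carries lactate and pyruvate across the cell membrane, had 184 and 211 CPM in Tcf1-deficient, 362 and 354 CPM in p45-deficient and 223 and 201 CPM in control libraries and rose 1.69-fold in p45-deficient cells (log2 fold change 0.76 ± 0.12 SE, edgeR adjusted p = 0.0105). This call was lost when any 1 p45-deficient or control library was left out, while the log2 fold change stayed between 0.63 and 0.78. Mpc2, a subunit of the mitochondrial pyruvate carrier, rose 1.43-fold, with 31.6 ± 0.202 CPM in p45-deficient and 22.2 ± 0.446 CPM in control cells (log2 fold change 0.51 ± 0.14 SE, edgeR adjusted p = 0.0452), and this call held in 4 of 13 alternatives. The glucose transporter Slc2a1 had 20.5 and 33.8 CPM in p45-deficient and 29.0 and 25.04 CPM in control libraries, and Slc2a3 had 24.99 and 35.7 CPM in p45-deficient and 26.2 and 25.2 CPM in control libraries. Neither was called. The largest log2 fold change of the list, −3.51 ± 1.11 SE, belonged to Slc16a7, a pyruvate and lactate carrier with only 0 and 4 counts in p45-deficient and 18 and 32 counts in control libraries (edgeR adjusted p = 0.0714). Slc16a7 and the citrate carrier gene Slc25a1 were called lower by DESeq2, with no filter, with only the compared groups fitted and without either Tcf1-deficient library, so the count of 0 lower depends on the fit.

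Of 24 further enzymes tested, 4 rose and 1 fell in p45-deficient cells (20.8%, beside 16.0% of all genes). Me2, the mitochondrial malic enzyme that turns malate into pyruvate, had 74.2 and 95.6 CPM in Tcf1-deficient, 135 and 143 CPM in p45-deficient and 83.8 and 88.1 CPM in control libraries and rose 1.62-fold (log2 fold change 0.70 ± 0.15 SE, edgeR adjusted p = 0.0224). Prps2, which makes the activated ribose for nucleotide synthesis from the product of the pentose phosphate pathway, had 183 and 269.6 CPM in Tcf1-deficient, 441 and 405 CPM in p45-deficient and 225 and 247 CPM in control libraries and rose 1.80-fold (log2 fold change 0.85 ± 0.19 SE, edgeR adjusted p = 0.0258). Bpgm, the bisphosphoglycerate mutase, rose 1.46-fold, with 42.6 ± 0.322 CPM in p45-deficient and 29.3 ± 0.984 CPM in control cells. This call held in 6 of 13 alternatives. H6pd, which performs the first pentose phosphate steps inside the endoplasmic reticulum, fell 1.70-fold, with 73.8 ± 1.66 CPM in p45-deficient and 125 ± 26.1 CPM in control cells (log2 fold change −0.76 ± 0.17 SE, edgeR adjusted p = 0.0274). The transketolase-like gene Tktl1 was called higher on very few reads, with 20 and 16 counts in p45-deficient and 1 and 0 counts in control libraries. The calls of Me2, Prps2, Bpgm and Tktl1 were lost when any 1 p45-deficient or control library was left out. That of H6pd was lost without control replicate 1 or either p45-deficient library. Pkm, the pyruvate kinase of most dividing cells, had 1365 and 1073 CPM in Tcf1-deficient, 1018 and 1204 CPM in p45-deficient and 1190.0 and 1088 CPM in control libraries, and these overlapped.

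Against control, 0 of these regulators, transporters and further enzymes were called in Tcf1-deficient cells by edgeR, with 2, 1 and 3 of them at an unadjusted p below 0.05, and DESeq2 called 0 as well. Against p45-deficient cells, Tcf1-deficient cells held more Pck2, Pdk2, Mlxip, Pfkfb3 and Pdk1 and less Fbp1 among the regulators (6 of 22, 27.3%, beside 10.4% of all genes). They held less Slc16a1 among the transporters (1 of 14, 7.14%) and less Me2 and Prps2 among the further enzymes (2 of 24, 8.33%). The shares of these last lists were below the 10.4% of all genes. Pck2 was 4.92-fold higher (log2 fold change 2.30 ± 0.20 SE, edgeR adjusted p = 0.00310) and Fbp1 7.63-fold lower in Tcf1-deficient than in p45-deficient cells (log2 fold change −2.93 ± 0.29 SE, edgeR adjusted p = 0.00372), and both calls held under all 13 alternatives. Slc16a1 was 1.81-fold lower in Tcf1-deficient cells (log2 fold change −0.86 ± 0.12 SE, edgeR adjusted p = 0.0118). These calls rest on the same p45-deficient libraries as those against control.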

How the data were processed

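Per the submitters' processing notes, TopHat2, featureCounts 1.5.0-p3, DESeq2 3.4 and the genome build mm9 were named, with no role or order. What the authors deposited is raw counts: 1 whole number for each gene symbol and library, not normalised. The annotation, strandedness and multi-mapping rule were not given in the sources used here. Overlapping, antisense and near-identical genes may therefore share reads.

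Counts of all 6 libraries were analysed with edgeR 4.0.16 in R 4.3.3. filterByExpr (minimum count 10) kept 12939 of 24015 symbols. Libraries were scaled with TMM, 1 mean per group was fitted (3 residual degrees of freedom, common biological coefficient of variation 0.215), and each comparison was tested with the robust quasi-likelihood F test (two-sided). P-values were adjusted over all genes tested by the Benjamini-Hochberg method, with a threshold of 0.05. SEs come from the F statistic. The alternatives were other scalings, no filter, DESeq2 1.42.0, each library left out, fits of the 2 groups compared and a replicate block. Groups follow the labelled genotypes.

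The 41 genes, the further lists and the motifs were chosen with earlier results of these data known. Named individually are called genes, first or committed enzymes of each route, the extremes of each comparison and up to 4 genes of each further list with the smallest p. Pdk1, Pdk3, Pfkfb3, Pfkfb4, Hif1a, Pdp1, Pdp2, Myc, Slc2a1, Slc2a3, Pkm, Tktl1, Slc16a7 and Slc25a1 were chosen after their values were seen. So were the enzymes with replicates that disagree. Exon lengths are from GENCODE M21 and promoters from RefSeq, both on GRCm38. The floor of 3 counts covers counting error only.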

Additional observations from a re-analysis of the deposited data

How the results depend on the processing

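No called enzyme gene changed sign under any of the 13 alternatives, while of the 41 genes up to 4 changed sign in p45-deficient against control, up to 10 in Tcf1-deficient against control and up to 8 in Tcf1-deficient against p45-deficient cells. With only the compared groups fitted, 15 enzyme genes of 3907 genes in all were called in p45-deficient against control and 1 of 488 in Tcf1-deficient against p45-deficient cells. Leaving out each library in turn gave 0 to 16 enzyme genes and 258 to 3923 genes in p45-deficient against control, 0 to 3 enzyme genes and 0 to 894 genes in Tcf1-deficient against control, and 0 to 16 enzyme genes and 105 to 3437 genes in Tcf1-deficient against p45-deficient cells. A lone library is assumed to vary like the other groups. DESeq2 called 1 enzyme gene and 145 genes in Tcf1-deficient against control and 11 and 2551 in Tcf1-deficient against p45-deficient cells; with no filter, 33 genes were called in the first of these and 4 enzyme genes in the second. The p45-deficient calls against control split into 1096 higher and 977 lower, and into 721 and 1281 with library totals, 820 and 1175 with upper-quartile and 893 and 1092 with median-of-ratios scaling. The median log2 fold change over all genes in that comparison, 0.05, changed sign to −0.06 with library totals and −0.03 with upper-quartile scaling. That of the TCA cycle, 0.18, was 0.070 with library totals and 0.099 with upper-quartile scaling. Summed CPM moved by more than the SD for pyruvate dehydrogenase in p45-deficient cells (566 with library totals, 572 with upper-quartile and 577 with median-of-ratios scaling), for the TCA cycle in p45-deficient (2269.9 with library totals) and control cells (2188, 2167 and 2137), and in control cells for glycolysis (3811 with library totals and 3775 with upper-quartile scaling) and the pentose phosphate pathway (1219 with library totals). The cause was not tested. The labels do not say whether replicate numbers pair the libraries across groups. Replicate differences correlated at −0.01 to −0.05 between groups, which cannot settle this because each group gives only a single difference. With the replicate block, 6 enzyme genes of 1613 genes were called in p45-deficient against control, 0 in Tcf1-deficient against control and 2 of 920 in Tcf1-deficient against p45-deficient cells.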
